A study of Mus musculus with 9 samples.

Results

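Lipg, the gene of endothelial lipase, was followed together with 5 related lipase genes, Lpl, Lipa, Pla2g7, Pnpla2 and Lipe, in RNA-seq counts of CD11b+ bone marrow cells. These 6 genes are among 23337 genes in the counts, and all 6 were among the 12553 genes that passed the filter on low counts. Lipg was chosen because its level was high after EnzR EVs and back near PBS with HDL NPs. Its values in all 3 comparisons are therefore a description, and no p-value is given for it. Lipg stayed in the counts of called genes over all tested genes. The other 5 lipases were added for their roles, with earlier results of these data known, and were tested.

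The libraries came from 9 male C57BL/6 mice, 3 per group, obtained at 3 to 6 weeks of age. Control mice received 100 µl of PBS through the tail vein on days 1, 3 and 5. On the same days the EnzR EV group received 10 µg of EV protein in 100 µl, the extracellular vesicles (EVs) being released by human CWR-R1 prostate cancer cells resistant to enzalutamide (EnzR). The last group, EnzR EVs + HDL NPs, here called the HDL NP group, received the same EVs and also 100 µl of HDL NPs, synthetic nanoparticles that mimic high-density lipoprotein, on days 0, 2 and 4. Their dose is 1 µM in the sample labels and 100 µM in the methods. The mice were killed 24 h after their last injection, and CD11b+ cells, mainly granulocytes and monocytes, were selected from marrow of the long bones of the leg once red cells had been lysed. No group received HDL NPs alone, and no group received EVs from other cells, so an effect of the particles on their own cannot be told apart from an effect on the response to EnzR EVs.

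Lipases release fatty acids from lipids in different places. Endothelial lipase and lipoprotein lipase belong to a family of secreted enzymes that act on lipoproteins at the vessel wall; endothelial lipase prefers the phospholipids of high-density lipoprotein, whereas lipoprotein lipase prefers the triglycerides of larger particles. Lysosomal acid lipase (Lipa) degrades cholesteryl esters and triglycerides taken up by the cell, Pnpla2 and Lipe act one after the other on triglycerides of cytosolic lipid droplets, and Pla2g7 encodes the secreted phospholipase that inactivates platelet-activating factor and that macrophages produce. In GENCODE M21 on GRCm38, the genes lie at chr18:74939322-74961263 on the minus strand (Lipg), chr8:68880491-68907448 on the plus strand (Lpl) and chr19:34492318-34527474 on the minus strand (Lipa). Pla2g7 lies at chr17:43568098-43612201 on the plus strand, Pnpla2 at chr7:141455198-141460743 on the plus strand and Lipe at chr7:25379527-25398710 on the minus strand.

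Of the 9 libraries, 3 stood apart from the rest. The ribosomal RNA gene Rn45s accounted for 42.7% of counts in EnzR EVs replicate 1, for 20.3% in PBS replicate 1 and for 14.2% in EnzR EVs replicate 3, against 0.657% to 2.87% in the other 6 libraries. Total counts were 2575776 in EnzR EVs replicate 1, 6006087 in PBS replicate 1 and 8554487 in EnzR EVs replicate 3, and between 13231038 and 18110561 elsewhere. EnzR EVs replicate 1 correlated with no other library above 0.919 across genes (Pearson, log2 CPM). Levels are counts scaled to a common library size with TMM factors (CPM). Some of the results that rest on these libraries are also given without them. The level that 3 counts stand for, taken as the floor, was 1.65 CPM in EnzR EVs replicate 1 and 0.16 CPM in EnzR EVs replicate 2; floors and counting intervals cover counting error only.

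Markers of CD11b+ myeloid cells were found in every library, which does not measure how pure the selected cells were. Of 18 markers of CD11b+ myeloid cells, 17 were in the counts and all 17 were detected in every library. By its mean CPM S100a9 was the highest of them, but Ngp was the highest in PBS replicate 1 and EnzR EVs replicate 1, and Ltf in EnzR EVs replicate 3. Their summed level was 67440, 129200 and 121200 CPM in PBS replicates 1 to 3, 40140, 137900 and 79020 CPM in the EnzR EV replicates, and 114500, 161500 and 94220 CPM with HDL NPs. The lowest sums were in EnzR EVs replicate 1, PBS replicate 1 and EnzR EVs replicate 3, the libraries with the most Rn45s. S100a9 itself stood at 2229 CPM in EnzR EVs replicate 1 and at 51360 CPM in HDL NP replicate 2. In such bulk samples, fewer cells of a type and less RNA per cell cannot be told apart.

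Markers of endothelial cells and adipocytes, which make several of these lipases in other tissues, were also counted. The 16 endothelial markers summed to 40.8, 71.7 and 90.6 CPM in the PBS replicates, 28.5, 49.2 and 68 CPM in the EnzR EV replicates and 61.9, 61.6 and 63.6 CPM with HDL NPs. Pecam1, which myeloid cells also express, had the highest CPM of them in every library but PBS replicate 3, where Stab2 did. Gpihbp1, the capillary protein that anchors lipoprotein lipase, never exceeded 5 counts, and Cdh5, Tek, Cldn5, Gpihbp1, Ramp2 and Mmrn2 were at 0 in EnzR EVs replicate 1, the shallowest library, in which 12 of the 16 were at or under 3 counts. The 10 adipocyte markers summed to 2.29, 4.03 and 5.26 CPM in the PBS replicates, 5.49, 2.71 and 2.84 CPM in the EnzR EV replicates and 2.36, 3.22 and 2.79 CPM with HDL NPs, with Lep at 0 in 8 of the 9 libraries. Retn had the highest mean CPM of these, but Adipoq was the highest in PBS replicates 2 and 3 and EnzR EVs replicate 3, and Slc2a4, with 5 counts, in EnzR EVs replicate 1. In EnzR EVs replicate 1, 9 of the 10 were at or under 3 counts. The groups overlapped in both sums, and the part of these cells in the level of Lipg was not tested.

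Lipg, which encodes endothelial lipase, was counted 87, 53 and 37 times in PBS replicates 1 to 3, 59, 709 and 275 times in the EnzR EV replicates, and 100, 101 and 97 times with HDL NPs. Scaled for depth, these were 15.3, 3.05 and 2.12 CPM after PBS, 32.4, 37.7 and 32.5 CPM after EnzR EVs and 5.63, 6.02 and 6.78 CPM after EnzR EVs with HDL NPs. All 3 EnzR EV mice were above all other mice, whereas the HDL NP mice lay inside the range of the PBS mice. The group means were 6.83 ± 7.36, 34.2 ± 3.05 and 6.14 ± 0.583 CPM (SD, n = 3).

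The 59 counts of EnzR EVs replicate 1 gave the widest relative counting interval within its group, 24.6 to 41.8 CPM (95%, exact Poisson); that of PBS replicate 1 was 12.3 to 18.9 CPM. Such intervals leave out the spread between mice. With library size in place of TMM factors, EnzR EVs replicate 1 stood at 22.9 CPM and PBS replicate 1 at 14.5 CPM, and the order of the groups was kept. The log2 fold change was 2.47 for EnzR EVs against PBS, −0.01 for the HDL NP group against PBS and −2.48 for the HDL NP group against EnzR EVs, each a value that chose the gene.

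The PBS level of Lipg rested on 1 mouse. PBS replicate 1, with 20.3% of its counts on Rn45s, was at 15.3 CPM, and the other PBS mice were at 3.05 and 2.12 CPM, below all 3 HDL NP mice. Without PBS replicate 1, the log2 fold change was 3.73 for EnzR EVs against PBS and 1.25 for the HDL NP group against PBS; without PBS replicate 3 it was 1.99 and −0.51. The return to the PBS level thus held for the mean of 3 PBS mice and not for PBS replicates 2 and 3 alone. Against EnzR EVs, the HDL NP group varied less, from −2.62 to −2.27 over 19 alternative settings. EnzR EVs replicate 2, with 1.15% of its counts on Rn45s, was at 37.7 CPM of Lipg, the highest of the 9 libraries. When all 3 libraries with over 10% of counts on Rn45s were left out, a choice made after seeing the data that leaves 1 EnzR EV mouse, the log2 fold changes were 3.87 against PBS and −2.62 for the HDL NP group against EnzR EVs.

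**Figure D1:**
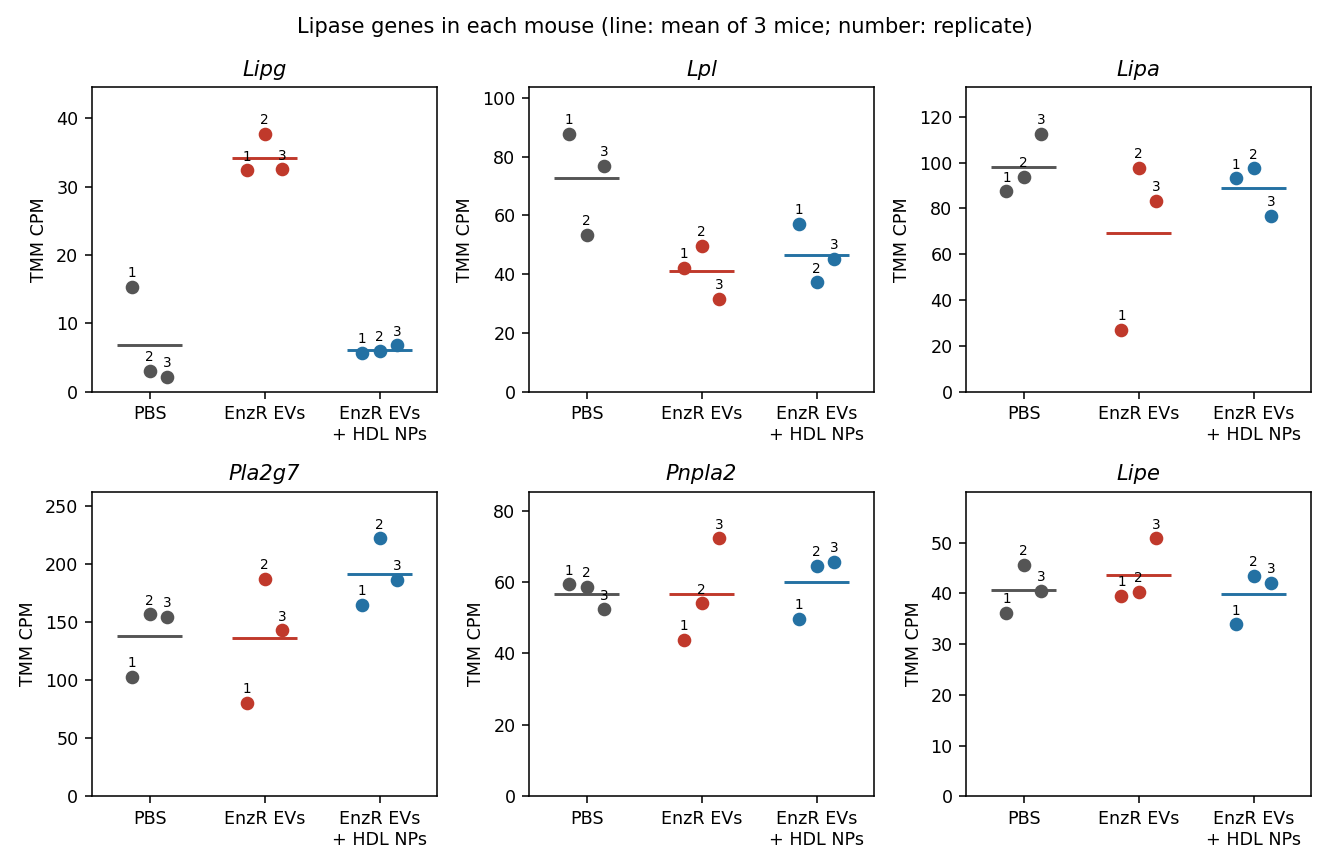
TMM-scaled CPM of the 6 lipases (y axis, from 0) in each mouse, by group (x axis); points are mice numbered by replicate and lines are means of 3 mice. Lipg lies between 32.4 and 37.7 CPM in the EnzR EV mice and at or below 15.3 CPM in all others.

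**Figure D2:**
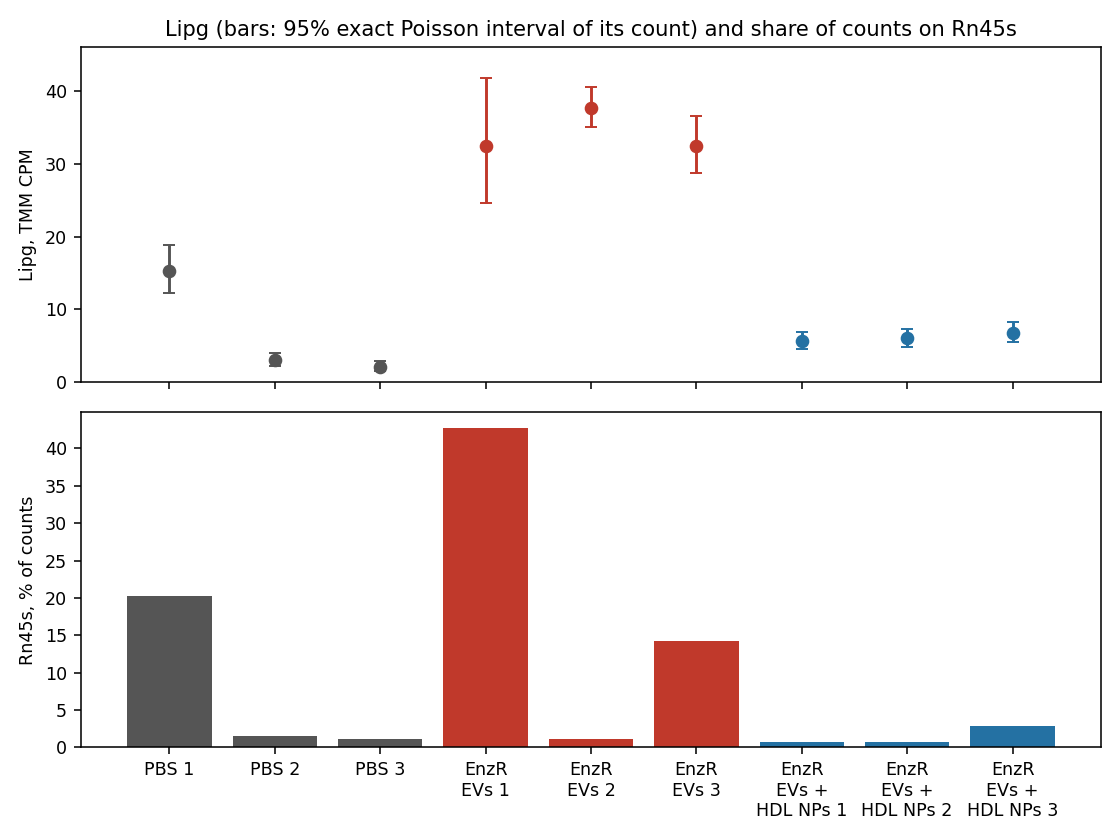
Lipg in each library with its 95% exact Poisson interval (top, TMM CPM) above the percentage of that library's counts on Rn45s (bottom, bars from 0). Lipg was highest in EnzR EVs replicate 2, where Rn45s took 1.15% of counts.

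Lpl, which encodes lipoprotein lipase and is made by macrophages as well as by fat and muscle, ran the other way. It stood at 87.8, 53.3 and 76.9 CPM in the PBS replicates, 42.3, 49.7 and 31.6 CPM in the EnzR EV replicates and 57.2, 37.2 and 45.3 CPM with HDL NPs. The 3 EnzR EV levels all lay under the 3 PBS levels, though the nearest mice, at 53.3 and 49.7 CPM, were close, and the HDL NP mice overlapped both groups. The log2 fold change of EnzR EVs against PBS was −0.82 ± 0.252 (SE; edgeR adjusted p = 0.928), and the two-sided exact permutation p was 0.1, the smallest that 3 mice against 3 allow. The HDL NP group against PBS gave −0.64 ± 0.247 (edgeR adjusted p = 1), and the HDL NP group against EnzR EVs gave 0.18 ± 0.25 (edgeR adjusted p = 0.746). Without the 3 libraries rich in Rn45s the first of these was −0.39, and the last −0.10; without HDL NP replicate 1 the last was −0.0084. Lpl was thus low in both groups given EnzR EVs by its values, with no call past the threshold, and unlike Lipg its level with HDL NPs stayed nearer that of EnzR EVs alone.

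Among all 12553 tested genes, 0 passed an adjusted p of 0.05 by edgeR in any of the 3 comparisons (0%). At an unadjusted p under 0.05, 436 genes (3.47%) differed between EnzR EVs and PBS, 268 (2.13%) between EnzR EVs + HDL NPs and PBS, and 1325 (10.6%) between EnzR EVs + HDL NPs and EnzR EVs. DESeq2 called 8, 7 and 1 genes in the same order at its default settings and 14, 2 and 1 genes with its independent filtering set for 0.05, a setting tried outside the plan, and limma voom called 0. None of the 5 tested lipases was called by any of these tools. Groups that did not overlap were found for 431 genes higher (3.43%) and 568 lower (4.52%) in EnzR EVs against PBS, for 874 higher (6.96%) and 779 lower (6.21%) in the HDL NP group against PBS, and for 1128 higher (8.99%) and 1077 lower (8.58%) in the HDL NP group against EnzR EVs. Of the 5 lipases tested, Lpl did not overlap in the first comparison, Pla2g7 in the second, and none in the last. The comparisons share groups and are not independent of each other.

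Lipa, the acid lipase of the lysosome, was at 87.5, 93.8 and 113 CPM in the PBS replicates, 26.9, 97.8 and 83.2 CPM in the EnzR EV replicates and 93.2, 97.5 and 76.6 CPM with HDL NPs. A single library, EnzR EVs replicate 1 with 49 counts, was low, and the other 8 lay between 76.6 and 113 CPM. EnzR EVs against PBS gave a log2 fold change of −0.47 ± 0.352 (SE; edgeR adjusted p = 0.928), and −0.11 without that library. The HDL NP group against EnzR EVs gave 0.33 ± 0.352 (edgeR adjusted p = 0.669), and −0.03 without it. The comparison of EnzR EVs + HDL NPs with PBS gave −0.14 ± 0.349 (edgeR adjusted p = 1). It gave −0.21 without PBS replicate 1 and −0.03 without PBS replicate 3.

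Pla2g7, the platelet-activating factor acetylhydrolase, was at 103, 156 and 155 CPM in the PBS replicates, 80.1, 187 and 143 CPM in the EnzR EV replicates and 165, 222 and 186 CPM with HDL NPs. The HDL NP mice were all above the PBS mice, and the EnzR EV mice overlapped both groups. In each of the PBS and EnzR EV groups, replicate 1, rich in Rn45s, was the lowest. The HDL NP group against PBS gave a log2 fold change of 0.47 ± 0.284 (SE; edgeR adjusted p = 1), with a two-sided exact permutation p of 0.1, and 0.29 without PBS replicate 1. Against EnzR EVs it was 0.47 ± 0.284 (edgeR adjusted p = 0.494), and 0.03 without the 3 libraries rich in Rn45s. EnzR EVs against PBS gave −0.0044 ± 0.284, with a 95% interval from −0.63 to 0.63, and its sign changed with upper-quartile scaling.

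Pnpla2 and Lipe, the adipose triglyceride lipase and hormone-sensitive lipase of the lipid droplet, were the steadiest of the 6. Pnpla2 was at 59.3, 58.6 and 52.3 CPM in the PBS replicates, 43.9, 54 and 72.2 CPM in the EnzR EV replicates and 49.7, 64.6 and 65.6 CPM with HDL NPs. Lipe was at 36.1, 45.6 and 40.5 CPM in the PBS replicates, 39.5, 40.3 and 50.8 CPM in the EnzR EV replicates and 33.9, 43.5 and 42.1 CPM with HDL NPs. The groups overlapped in every comparison of both genes. For Pnpla2, the log2 fold change of EnzR EVs against PBS was 0.01, with a 95% interval from −0.44 to 0.47, that of the HDL NP group against PBS 0.08, from −0.37 to 0.53, and that of the HDL NP group against EnzR EVs 0.07, from −0.38 to 0.52. For Lipe the corresponding values were 0.10, from −0.30 to 0.50, then −0.04, from −0.43 to 0.36, and −0.14, from −0.54 to 0.26. Sign changed with the scaling for Lipe in all 3 comparisons and for Pnpla2 in EnzR EVs against PBS, so no direction is given for either.

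**Figure D3:**
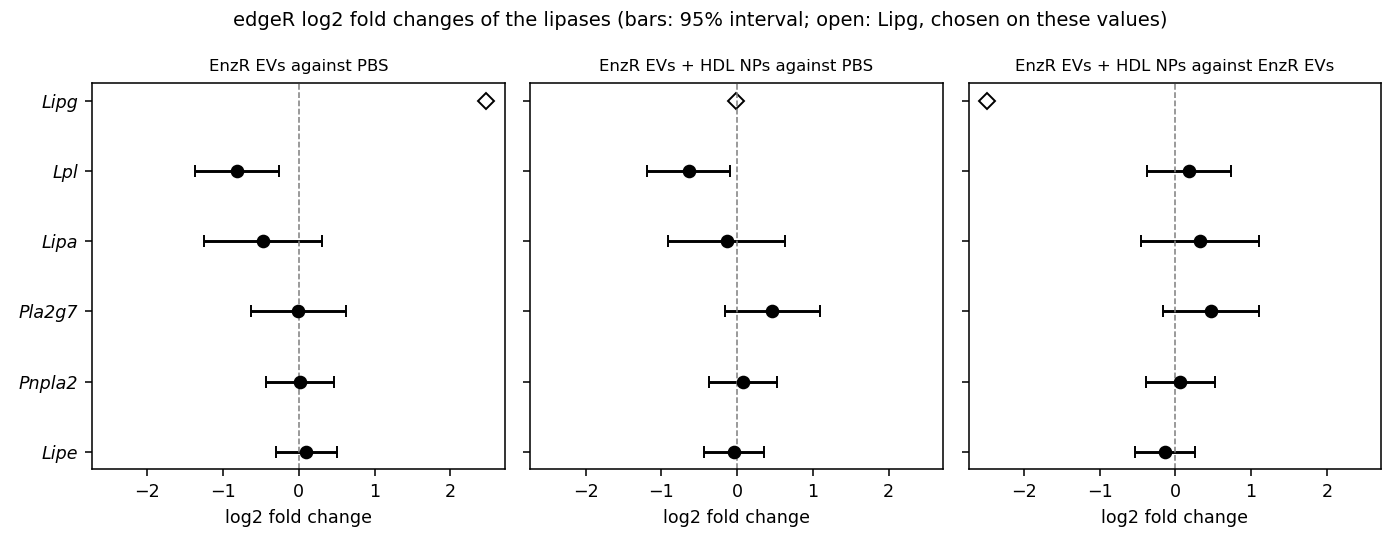
edgeR log2 fold changes (x axis) of the 6 lipases in the 3 comparisons; bars are 95% intervals, and Lipg, chosen on these values, is an open symbol without a bar. Only the intervals of Lpl against PBS exclude 0, before adjustment over 12553 genes.

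Compared per kilobase of exon, Pla2g7 was the most abundant of the 6 lipases in all 9 libraries, at 53.4 ± 14.9 CPM per kb (SD, n = 9), followed by Pnpla2 at 19.1 ± 2.92 CPM per kb. Lipa came next, at 12.6 ± 3.57 CPM per kb, below Pnpla2 in all 9 libraries and by just over their spread. Lipe, at 7.03 ± 0.853 CPM per kb, lay below Lipa by more than their spread, though not in EnzR EVs replicate 1. Lpl at 5.1 ± 1.75 CPM per kb did not differ from Lipe beyond their spread. Lipg was at 3.34 ± 3.06 CPM per kb, a spread that includes the group differences it was chosen on. Its mean was below that of Lpl after PBS (1.45 against 6.94 CPM per kb) and with HDL NPs (1.3 against 4.44 CPM per kb). After EnzR EVs it was above Lpl (7.25 against 3.93 CPM per kb). Lipg was the lowest in all PBS and all HDL NP mice. In the EnzR EV replicates it ranked 3, 4 and 5 of the 6 genes; Lipa was the lowest in EnzR EVs replicate 1 instead, and Lpl in EnzR EVs replicates 2 and 3. With the length of the longest transcript Lpl, at 13 CPM per kb, came before Lipe, at 11.1 CPM per kb, and Pnpla2 and Lipa, at 22 and 21.9 CPM per kb, were level. From the lowest to the highest library, levels differed by 17.8 times for Lipg, 4.19 times for Lipa, 2.78 times for Lpl, 2.77 times for Pla2g7, 1.65 times for Pnpla2 and 1.5 times for Lipe.

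Antisense genes overlap Pla2g7 and Lipe. The kit keeps the strand, but the strand setting of the counting is not given in the sources used here. The antisense gene over Lipe had at most 4 counts in any library, while the one over Pla2g7, 1700071M16Rik, had between 7 and 390 counts against 146 to 3723 for Pla2g7. Without the strand setting, it is not known whether reads of an antisense partner were counted with Pla2g7 or Lipe, and this was not tested. No other gene in the annotation overlaps Lipg, Lpl, Lipa or Pnpla2.

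The promoters of Lipe and Pla2g7 are shown because Lipe has more than 1 annotated start site, which gene counts cannot separate, and Pla2g7 was the most abundant lipase per kb. Each is a stretch of 300 bases around a start site, 5′ to 3′ on the strand of the gene, from RefSeq on GRCm38.p6. Capitals mark the GC box GGGCGG, searched on both strands and picked for marking after the matches were seen, which 35.7% of 32851 promoters hold.
Lipe, first start site, chr7:25395938-25396237, minus strand: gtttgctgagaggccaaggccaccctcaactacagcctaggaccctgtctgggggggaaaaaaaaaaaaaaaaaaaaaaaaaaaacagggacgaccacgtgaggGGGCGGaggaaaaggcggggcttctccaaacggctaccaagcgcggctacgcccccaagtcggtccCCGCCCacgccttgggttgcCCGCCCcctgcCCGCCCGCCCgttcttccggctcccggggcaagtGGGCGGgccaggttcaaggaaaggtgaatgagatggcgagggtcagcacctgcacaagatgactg
Lipe, second start site, chr7:25390063-25390362, minus strand: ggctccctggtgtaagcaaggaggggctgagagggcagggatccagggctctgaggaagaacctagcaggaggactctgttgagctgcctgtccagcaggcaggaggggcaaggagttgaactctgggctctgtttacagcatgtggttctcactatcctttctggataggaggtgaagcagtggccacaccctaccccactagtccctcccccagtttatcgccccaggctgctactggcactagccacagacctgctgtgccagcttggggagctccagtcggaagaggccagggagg
Pla2g7, chr17:43568201-43568500, plus strand: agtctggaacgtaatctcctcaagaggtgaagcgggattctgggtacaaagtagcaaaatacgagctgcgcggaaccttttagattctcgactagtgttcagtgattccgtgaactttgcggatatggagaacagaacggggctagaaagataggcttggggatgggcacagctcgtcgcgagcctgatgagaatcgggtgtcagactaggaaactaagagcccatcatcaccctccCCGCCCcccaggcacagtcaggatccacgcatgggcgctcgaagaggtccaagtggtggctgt

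The first Lipe promoter holds 6 GC boxes, 2 of them overlapping, and 19 CG dinucleotides, and the second holds 0 GC boxes and 2 CG dinucleotides, at a similar base composition of 61% and 60% G and C. The Pla2g7 promoter holds 1 GC box and 17 CG dinucleotides. The E-box CACGTG, present in 7.15% of promoters, occurs once in the first Lipe promoter, and TATAAA, in 13.6% of promoters, in none of these 3. Promoters of Pnpla2 and Lipa were also in the table; those of Lipg and Lpl were not used here. A match to such letters describes the sequence only.

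The lipases were set beside 7 lists of lipid genes, 116 tested genes besides Lipg. In EnzR EVs against PBS, 47 of them had a positive and 69 a negative log2 fold change, with a median of −0.05 against −0.03 over all tested genes, 5833 positive and 6720 negative; 3 (2.59%) were higher and 10 (8.62%) lower without overlap, beside 3.43% and 4.52% of all genes. In the HDL NP group against PBS, 43 were positive and 73 negative, with a median of −0.06 against −0.0072 over all, 6133 positive and 6420 negative; 4 (3.45%) were higher and 13 (11.2%) lower without overlap, beside 6.96% and 6.21%. In the HDL NP group against EnzR EVs, 61 were positive and 55 negative, with a median of 0.01 against 0.03 over all, 6633 positive and 5920 negative; 11 (9.48%) were higher and 8 (6.9%) lower without overlap, beside 8.99% and 8.58%. None of the 116 passed the edgeR threshold in any comparison. At an unadjusted p under 0.05, 0 were higher and 5 lower in EnzR EVs against PBS (4.31%, beside 3.47% of all genes, 195 higher and 241 lower). In the HDL NP group against PBS 0 were higher and 4 lower (3.45%, beside 2.13%, 128 higher and 140 lower), and in the HDL NP group against EnzR EVs 6 were higher and 10 lower (13.8%, beside 10.6%, 450 higher and 875 lower). No test of the lists was made.

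Among the lipid genes without overlap in EnzR EVs against PBS, Apoc2, Ces1d, Lpl and Apoe had the lowest values, and Apoc2 and Apoe are listed with the cofactors of the secreted lipases. Apoe, the apolipoprotein that carries particles to their receptors, was at 202 ± 50.6 CPM after PBS, 121 ± 5.1 CPM after EnzR EVs and 115 ± 30.6 CPM with HDL NPs (SD, n = 3). Its log2 fold change was −0.74 against PBS after EnzR EVs (edgeR adjusted p = 0.928) and −0.82 with HDL NPs (edgeR adjusted p = 1), without overlap in either. Apoc2, the activator of lipoprotein lipase, was at 7.94 ± 1.92, 4.31 ± 1.63 and 7.42 ± 2.09 CPM, with −0.83 for EnzR EVs against PBS, −1.29 without EnzR EVs replicate 2 and −0.51 without the 3 libraries rich in Rn45s. Angptl4, which inhibits lipoprotein lipase, was at 2.9 ± 1.44, 1.73 ± 0.069 and 1.79 ± 0.805 CPM, and Lmf1, a factor in lipase folding, at 7.72 ± 0.487, 5.43 ± 3.11 and 5.89 ± 1.29 CPM. In EnzR EVs replicate 1, Angptl4 had 3 counts and Lmf1 had 4. Sdc1, a heparan sulfate proteoglycan, gave −1.01 in the HDL NP group against PBS, at 0.711 ± 0.0798 CPM against 1.53 ± 0.661 CPM. It gave −0.68 without the 2 libraries highest in Rn45s share. Lmf2, a relative of Lmf1, gave −0.84 for the HDL NP group against EnzR EVs (edgeR adjusted p = 0.461), −0.53 without EnzR EVs replicate 1 and −0.13 without the 3 libraries rich in Rn45s. Sel1l, which helps lipoprotein lipase to leave the endoplasmic reticulum, gave 0.18 in EnzR EVs against PBS and 0.01 by library size only. In this list of 20 genes, of which 13 were tested, 6 were positive and 7 negative in EnzR EVs against PBS, 2 positive and 11 negative in the HDL NP group against PBS, and 4 positive and 9 negative in the HDL NP group against EnzR EVs.

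Macrophages make both Lpl and Apoe, and the 20 macrophage markers summed to 1336, 1727 and 2403 CPM in the PBS replicates, 1146, 1391 and 1220 CPM in the EnzR EV replicates and 1535, 1392 and 1383 CPM with HDL NPs, led by Slc40a1. Marco and Cd209g were at 0 in EnzR EVs replicate 1, and the groups overlapped. Of the 20 markers 19 were tested; 17 of the 19 were negative in EnzR EVs against PBS, with a median log2 fold change of −0.78, and 19 of 19 in the HDL NP group against PBS, with a median of −0.42. In the HDL NP group against EnzR EVs 14 were positive and 5 negative, with a median of 0.37; 6720, 6420 and 5920 of all 12553 genes were negative in the 3 comparisons. The B lineage and erythroid lists had the same sign. Against PBS, 12 of 12 tested B lineage markers were negative both after EnzR EVs and with HDL NPs (medians −1.17 and −0.92). So were 8 and 9 of 9 erythroid markers (medians −0.96 and −0.66). Of 12 tested platelet and megakaryocyte markers, 10 were negative after EnzR EVs and 10 with HDL NPs (medians −0.25 and −0.61). In the same order, 9 and 8 of 12 endothelial and 8 and 7 of 11 stromal and osteolineage markers were negative. Of 10 T and NK cell markers 6 and 8 were negative, and of 2 adipocyte markers 2 and 2. Of 17 CD11b+ myeloid markers, 12 were negative after EnzR EVs and 7 with HDL NPs (medians −0.12 and 0.12). In the same order, 11 and 8 of 14 monocyte markers and 7 and 9 of 13 dendritic cell markers were negative. The part of macrophage abundance in the values of Lpl and Apoe was not tested.

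Genes of the lipid droplet around Pnpla2 and Lipe varied in level and overlapped between groups for Abhd5, G0s2, Plin2 and Mgll. Abhd5, the activator of Pnpla2, was at 185 ± 14.1, 206 ± 31.5 and 198 ± 22.7 CPM after PBS, EnzR EVs and EnzR EVs with HDL NPs, and G0s2, an inhibitor of Pnpla2, at 82.6 ± 15, 82.3 ± 11.6 and 64.8 ± 20.4 CPM. Plin2, which coats droplets, was at 133 ± 18.2, 117 ± 20.4 and 137 ± 16.7 CPM, and Mgll, which cleaves monoacylglycerol, at 57.6 ± 11.7, 43.2 ± 7.2 and 58.6 ± 7.79 CPM. Hilpda, another inhibitor of Pnpla2, had the lowest value of any lipid gene without overlap in the HDL NP group against PBS, −1.14 (edgeR adjusted p = 1), at 3.36 ± 1.21 CPM against 7.58 ± 2.97 CPM. That value of Hilpda was −0.81 without the 3 libraries rich in Rn45s. Ces1d, a carboxylesterase, stood at 4.87 ± 0.999 CPM after PBS, 2.24 ± 1.94 CPM after EnzR EVs and 6.2 ± 1.87 CPM with HDL NPs. Its log2 fold changes were −0.82 for EnzR EVs against PBS and 1.16 for the HDL NP group against EnzR EVs (edgeR adjusted p = 0.461). It had 0 counts in EnzR EVs replicate 1, and without that library the values were −0.55 and 0.88. Nceh1, which hydrolyses cholesteryl esters, was at 90.2 ± 5.85, 89.6 ± 16.4 and 93.5 ± 3.86 CPM, and Ddhd1, a phospholipase of phosphatidic acid, gave 0.32 in the HDL NP group against PBS. Of 25 genes in this list 17 were tested, with 8 positive and 9 negative in EnzR EVs against PBS, then 10 and 7 in the HDL NP group against PBS, and 9 and 8 in the HDL NP group against EnzR EVs.

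Some values of lysosomal genes around Lipa rested on the libraries rich in Rn45s. Psap, the precursor of the saposins, was at 2317 ± 959 CPM after PBS, 3072 ± 1760 CPM after EnzR EVs and 1605 ± 36.6 CPM with HDL NPs. The HDL NP group against EnzR EVs gave −0.94 (edgeR adjusted p = 0.461), −0.39 without EnzR EVs replicate 1, and −0.05 without the 3 libraries rich in Rn45s. Soat1, which esterifies cholesterol, was at 313 ± 110, 519 ± 274 and 274 ± 30.5 CPM. Its EnzR EV replicates 1 to 3 stood at 818, 280 and 457 CPM. Npc1 and Npc2, which export cholesterol from the lysosome, were at 62.6 ± 10.4, 52.2 ± 8.12 and 62.4 ± 1.44 CPM and at 267 ± 44.7, 227 ± 48.9 and 223 ± 17.6 CPM. Tfeb, a regulator of lysosomal genes, was at 56.3 ± 6.62, 63.4 ± 16.5 and 46.2 ± 7.01 CPM. Lipm, an acid lipase relative, gave 0.72 in the HDL NP group against PBS and 0.39 without PBS replicate 1. Of 29 genes in this list 26 were tested, with 11 positive and 15 negative in EnzR EVs against PBS, then 7 and 19 in the HDL NP group against PBS, and 15 and 11 in the HDL NP group against EnzR EVs.

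Around Pla2g7, Ptafr, the receptor of platelet-activating factor, was at 66.8 ± 16.4, 54 ± 27 and 74.1 ± 13.7 CPM in the same order of groups. Pla2g4b, a cytosolic phospholipase A2, was without overlap in the direction of Lipg, at 0.575 ± 0.398, 1.23 ± 0.168 and 0.632 ± 0.307 CPM, with 1 count in PBS replicate 1 and 2 in EnzR EVs replicate 1, both under the floor, and with 0.95 for EnzR EVs against PBS (edgeR adjusted p = 0.928) and −0.97 for the HDL NP group against EnzR EVs (edgeR adjusted p = 0.49). The first was 1.52 without PBS replicate 3 and 0.60 without the 3 libraries rich in Rn45s. In the HDL NP group against PBS, Pla2g12a, a secreted phospholipase A2, gave −0.81, and −0.63 without the 3 libraries rich in Rn45s. Of 26 genes 18 were tested, and 6 were positive and 12 negative in EnzR EVs against PBS, with 9 of each sign in both other comparisons.

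Among genes of uptake, the highest values in the HDL NP group against EnzR EVs were Fabp4, a fatty acid carrier, at 1.16, and Cd36, a scavenger receptor that takes up fatty acids, at 1.00 (edgeR adjusted p = 0.461 for both). Cd36 was at 17.6 ± 8.75, 9.73 ± 2.12 and 20.2 ± 1.52 CPM, and Fabp4 at 9.27 ± 4.29, 3.81 ± 2.88 and 10 ± 0.696 CPM. Fabp4 had 1 count in EnzR EVs replicate 1, under the floor, and gave 0.89 without that library. Acsl1, which activates fatty acids, was higher without overlap with HDL NPs than in both other groups, at 0.41 against PBS and 0.50 against EnzR EVs, with 0.22 against PBS without PBS replicate 1 and 0.24 against EnzR EVs without EnzR EVs replicate 1. Scarb1, the receptor of high-density lipoprotein that HDL NPs are made to bind, was at 53.7 ± 1.05, 46.9 ± 20.8 and 49.7 ± 3.54 CPM. In EnzR EVs against PBS, Cpt2, a mitochondrial fatty acid importer, gave 0.20, with 0.04 by library size only and 0.31 without the 3 libraries rich in Rn45s. This list of 23 genes also held Cpt1a, Cpt2, Hadha, Acadl, Acadm and Acadvl, which act on fatty acids in mitochondria, so its tallies are not of uptake alone. Of the 23 genes 22 were tested, with 8 positive and 14 negative in EnzR EVs against PBS. The tallies were 11 and 11 in the HDL NP group against PBS, and 13 and 9 in the HDL NP group against EnzR EVs.

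Of 21 lipid-sensing transcription factors 18 were tested, with 8 positive and 10 negative in EnzR EVs against PBS, 3 and 15 in the HDL NP group against PBS, and 9 and 9 in the HDL NP group against EnzR EVs. Their median log2 fold changes were −0.13, −0.27 and 0.0021, beside −0.03, −0.0072 and 0.03 over all genes. At an unadjusted edgeR p under 0.05 there were 0 in each comparison with PBS and 1 higher and 4 lower in the HDL NP group against EnzR EVs, beside 450 higher and 875 lower of all 12553 genes (10.6%). Pparg was at 11 ± 4.15, 6.14 ± 4.4 and 9.38 ± 0.833 CPM, and Nr1h3, which encodes a liver X receptor, at 5.7 ± 3.15, 3.86 ± 1.48 and 4.47 ± 0.788 CPM. In EnzR EVs replicate 1, Pparg had 2 counts, under the floor, and Nr1h3 had 5. The secreted lipase family itself had 9 genes, of which Lipg and 2 tested genes passed the filter, Lpl and Pla1a, the latter named after its values were seen. Lipc, hepatic lipase, had at most 4 counts in a library.

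**Figure D4:**
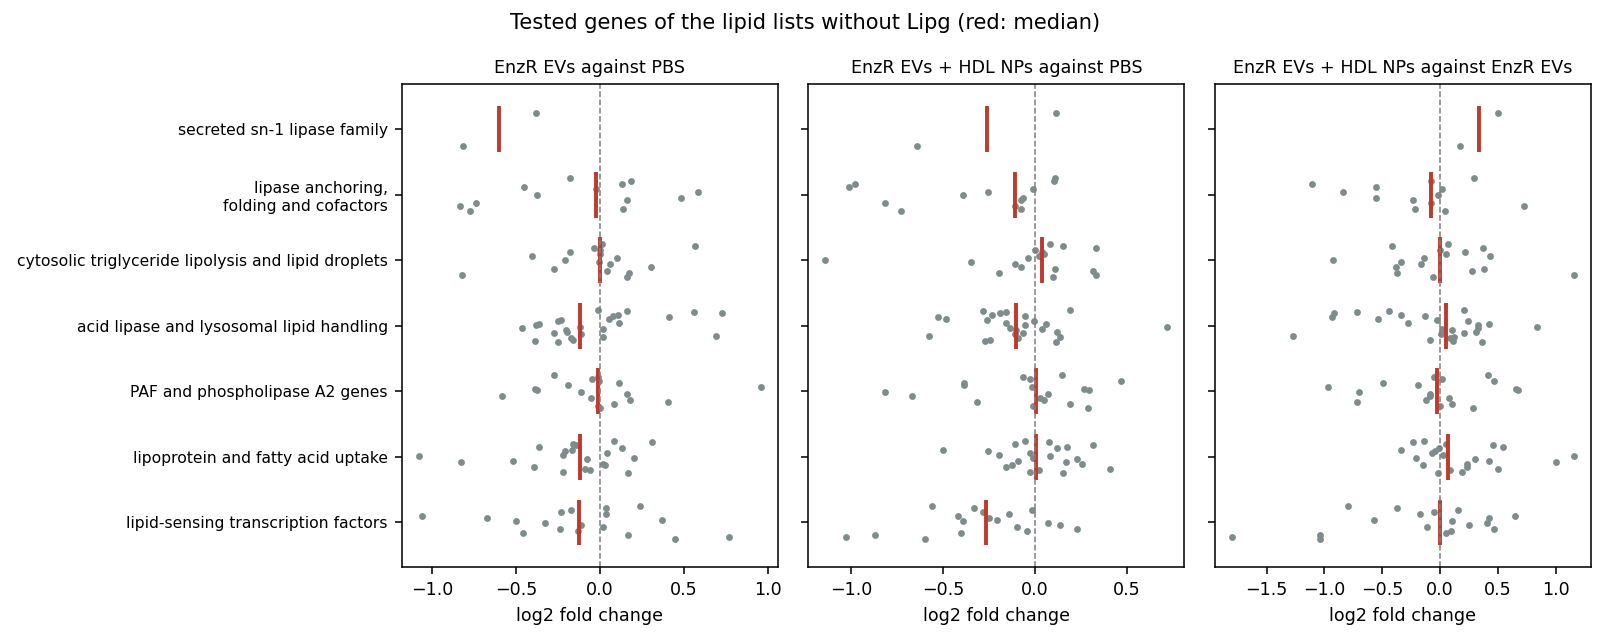
edgeR log2 fold changes (x axis) of the tested genes in 7 lipid lists without Lipg (rows), in the 3 comparisons; each point is a gene and red lines are list medians. The points of every list lie on both sides of 0 in EnzR EVs against PBS except for the secreted lipase family, where both are negative.

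The genes most like Lipg over the 9 libraries, by Pearson correlation of log2 CPM, were Cmas (0.944), Vim (0.937), Kif22 (0.933), Ogfr (0.929), Fam76a (0.922), Igfbp6 (0.92), AI646023 (0.918) and Spc25 (0.916). The points share their libraries and depth, and 14 of 12552 genes exceeded 0.9. Lipg was chosen for its difference between these groups, so a gene that shares this difference ranks high. The likeness is a description and was not tested. Their size differed from that of Lipg: Vim, which encodes vimentin, was at 1031 ± 138, 1259 ± 97.9 and 1036 ± 41.7 CPM (SD, n = 3), and Cmas at 43.2 ± 5.92, 54 ± 2.48 and 42 ± 1.84 CPM. Igfbp6, which encodes a binding protein of insulin-like growth factors, was closer in proportion, at 0.604 ± 0.856, 3.57 ± 1.67 and 0.29 ± 0.182 CPM, with 0 counts in PBS replicate 2 and 2 counts in 1 HDL NP library. With EnzR EVs replicates 2 and 3 left out, the libraries farthest from the median of Lipg, the 8 correlations lay between 0.904 and 0.989. EnzR EVs replicate 1, at 32.4 CPM of Lipg, stayed in, so the difference that chose Lipg was not removed. Without the 2 libraries highest in Rn45s share they lay between 0.909 and 0.977, but only Vim and Ogfr, at ranks 2 and 7, were still among the 8 most like Lipg; Cmas ranked 18, Kif22 20, Igfbp6 35, Spc25 39, AI646023 40 and Fam76a 43. Scaled by library size only, Cmas gave 0.522, Vim 0.35, Kif22 0.623, Ogfr 0.734, Fam76a 0.215 and Spc25 0.312, and Igfbp6 0.901 and AI646023 0.903. The other lipases were less like Lipg, from −0.497 for Lipa to 0.0954 for Lipe, and Rn45s gave 0.626.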

How the data were processed

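The authors deposited raw counts of reads per gene for 9 libraries of a stranded total RNA kit. Per their methods and processing notes, reads were trimmed (cutadapt 1.13), reads on ribosomal RNA were filtered, and the rest were aligned to mm10 with STAR and counted with HTSeq 0.6.1p1; Rn45s still held counts. The counts were tested with edgeR 4.0.16 in R 4.3.3: TMM scaling, its default filter on low counts, a robust quasi-likelihood fit to all 9 libraries, and Benjamini-Hochberg adjustment over 12553 genes at 0.05. The SE is the log2 fold change over the root of F. For the 5 other lipases, TMM CPM was also compared by an exact two-sided permutation test. Log2 CPM used a prior count of 2. DESeq2 1.42.0 and limma 3.58.1 served as alternatives, and the fit was tested on simulated data. Exon lengths came from GENCODE M21. Members and lists were chosen with earlier results of these data known. Named genes are the 6 lipases, in each comparison the 4 highest and 4 lowest lipid genes without overlap, listed genes of known role such as Gpihbp1 and Apoe, the 8 most like Lipg and each marker list's most abundant gene; older symbols were matched through RefSeq. PBS replicates 2 and 3, the closest pair, had a chi-square per gene of 4.65 and were kept as separate mice.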

Additional observations from a re-analysis of the deposited data

How the results depend on the processing

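The count of genes past the threshold was 0 by edgeR in all 3 comparisons. In EnzR EVs against PBS it was 8 with DESeq2 at default settings and 14 with its independent filtering set for 0.05. It was 1 without a filter on low counts and 5 without the 2 libraries highest in Rn45s share. With 1 replicate left out it was 0 to 2, the 2 without PBS replicate 1. Lipg, chosen on these comparisons, was among the 14, the 5 and the 2, so these counts are no support for it. For the HDL NP group against PBS it was 7 with DESeq2 at default settings and 2 with the other filtering. Against EnzR EVs it was 1 with either DESeq2 setting, with the 6 libraries of the comparison only, and without the 2 libraries highest in Rn45s share. With the 6 libraries and without the 2 libraries, that gene was Lipg, which was chosen on this comparison. The DESeq2 filtering for 0.05 was run first and the default, as planned, was run after its counts were seen; leaving out 3 libraries was also chosen after seeing the data, and the 1 EnzR EV mouse left is assumed to vary like the other groups. The causes were not tested.

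With replicate number as a block, 1 gene passed in EnzR EVs against PBS and 0 in the others. The numbers are not known to pair mice: deviations of same-numbered libraries correlated above 0.1 in 6 of 9 pairs (mean 0.174), against 6 of 18 pairs with different numbers (mean −0.0759), and 10 of 18 best matches were with the own number.

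Of 714 alternative log2 fold changes of named genes, 672 kept their direction and side of the threshold or, for Lipg, stayed within 1 SD. That SD is of log2 CPM between mice, pooled over the 2 groups compared, and PBS replicate 1 widens it in comparisons with PBS. Another 8, of Lipg, moved by more, and 34, all of the 5 tested lipases, changed sign. Lipg in the HDL NP group against PBS, at −0.01, is not in that count and was of either sign, from −0.51 to 1.25. In EnzR EVs against PBS, Pla2g7 was 0.0066 with DESeq2, 0.00039 with the upper quartile, 0.014 with 6 libraries, 0.0086 without Rn45s, 0.093 without 2 and 0.27 without 3 libraries rich in Rn45s, and −0.27 to 0.26 with 1 replicate left out. Pnpla2 was −0.13 with library size only, −0.016 without a filter, −0.017 with the block, −0.034 without 3 libraries and −0.21 to 0.16 with 1 replicate left out. Lipe was −0.069 with library size only, −0.090 without 3 libraries and −0.038 to 0.21 with 1 replicate left out. For the HDL NP group against PBS, Lipe was 0.0093 with library size only and −0.11 to 0.078 with 1 replicate left out. Against EnzR EVs, Lipe was 0.078 with library size only and −0.23 to 0.0023 with 1 replicate left out; Lipa was −0.032 without 2 and −0.14 without 3 libraries, and −0.031 to 0.62; Pnpla2 was −0.079 without 2 libraries, and −0.080 to 0.29; Lpl was −0.097 without 3 libraries, and −0.0084 to 0.33. Library size only moved the median of all genes from −0.03 to −0.18 in EnzR EVs against PBS and from 0.03 to 0.24 in the HDL NP group against EnzR EVs; the causes of other changes were not tested. Depth limits EnzR EVs replicate 1 most, where 3 counts stand for 1.65 CPM.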
